A study of Homo sapiens with 7 samples.

Results

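The 10 genes described here are nuclear long noncoding RNAs (lncRNAs) and host genes of small nucleolar RNAs (snoRNAs), chosen by symbol out of the 62238 genes with deposited exon counts. They are MALAT1, NEAT1 and KCNQ1OT1, which act as RNAs in the nucleus, and GAS5, SNHG1, SNHG5, SNHG6, SNHG7, SNHG8 and SNHG12, whose introns carry snoRNAs. RNA was sequenced from 3 cultures of MEG-01, a human megakaryoblastic leukemia cell line. One library came from control cells and 2 came from lines in which RBM15, an RNA-binding protein of the spen family, was knocked down with either of 2 short hairpin RNAs, shRBM15#1 and shRBM15#2. A separate RNA immunoprecipitation experiment (RIP-seq) used an anti-RBM15 antibody and normal immunoglobulin. By the labels all 3 cultures carried lentiviral transgenes, were at passage 5, were grown in RPMI1640 with fetal bovine serum, and were harvested in the exponential phase. Each knockdown line was a single culture with a single library, and the control was a single culture too.

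MALAT1 is concentrated in nuclear speckles, the storage sites of splicing factors, and the long form of NEAT1 is the scaffold of paraspeckles, which hold proteins such as SFPQ and NONO. KCNQ1OT1 is transcribed antisense to KCNQ1 and silences neighbouring imprinted genes in cis. A snoRNA host gene is spliced, the snoRNA is trimmed out of the excised intron and guides the chemical modification of ribosomal or spliceosomal RNA, and the joined exons form an RNA that in several hosts is exported and degraded during translation. The level of the joined exons and the level of intron sequence can therefore be read separately.

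The difference between knockdown and control with the smallest p among these genes was within SNHG1, the host of a group of box C/D snoRNAs. Reads on its exons fell to about the same extent in both lines, while reads on its introns did not fall. The share of SNHG1 reads on intron bins was 23.1% in control cells against 41.5% (shRBM15#1) and 41.0% (shRBM15#2). MALAT1 and NEAT1 were lower and KCNQ1OT1 was higher in both lines than in the control, but none of these 3 passed the test on the gene level. No site from the RIP-seq overlapped any of the 10 genes, compared with 4.81% of all genes tested and 1.95% of tested lncRNA genes.

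The sequences below, from the strand of the gene (GRCh37), show the places where the use of SNHG1 changed most. Bins are the pieces into which the annotated exons of a gene are cut wherever transcripts differ, and they are numbered along the chromosome. The first sequence is intron 3 of SNHG1 with 20 bases of exon on either side, chr11:62622391-62622624, and capitals mark bins 058 and 057, which together run from the 5′ splice site to chr11:62622484. The second is part of intron 5, chr11:62621633-62621913, and capitals mark bins 047 and 044. The third lies in intron 4, chr11:62622073-62622171, and capitals mark bin 051.
SNHG1 intron 3: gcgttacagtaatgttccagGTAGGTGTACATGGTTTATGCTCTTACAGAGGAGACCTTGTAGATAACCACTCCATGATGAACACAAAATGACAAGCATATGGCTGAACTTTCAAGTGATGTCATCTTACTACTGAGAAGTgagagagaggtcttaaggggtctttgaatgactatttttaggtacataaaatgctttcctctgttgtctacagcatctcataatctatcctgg
SNHG1 intron 5, part: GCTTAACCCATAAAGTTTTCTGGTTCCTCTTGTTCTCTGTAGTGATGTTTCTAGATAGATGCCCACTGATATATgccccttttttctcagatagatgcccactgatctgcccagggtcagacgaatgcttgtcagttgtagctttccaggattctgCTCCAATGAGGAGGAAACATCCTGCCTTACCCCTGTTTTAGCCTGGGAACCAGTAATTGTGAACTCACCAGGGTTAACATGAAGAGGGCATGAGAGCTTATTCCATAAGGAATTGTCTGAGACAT
SNHG1 intron 4, part: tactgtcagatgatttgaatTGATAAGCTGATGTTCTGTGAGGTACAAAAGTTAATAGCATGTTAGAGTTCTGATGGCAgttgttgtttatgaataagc
Bin 057 holds the letters TGATGA, the core of the C box of box C/D snoRNAs, followed by CTGA, the D box. TGATGA followed within 40 to 110 bases by CTGA, searched on the strand of the gene only, was present in 5 of the 10 introns of SNHG1, in introns 1, 3, 6, 7 and 8. Of 33236 introns of canonical transcripts between 129 and 454 bases long, the range of the SNHG1 introns, 1.8% held the same pair and 6.25% held TGATGA. The pair was present in 9 of 11 introns of GAS5 and in 4 of 5 introns of SNHG5, in 1 of 2 introns of SNHG6, and in none of the introns of SNHG7, SNHG8 and SNHG12. Introns of these other hosts were searched at any length, so the 1.8% is not a like background for them. In SNHG5 the intron between exons 4 and 5 lies between positions 86373444 and 86386811, far longer than 454 bases. A longer intron has more room for a match of letters. RefSeq names 8 SNORD genes within SNHG1, among them SNORD22, SNORD25 and SNORD31, 10 within GAS5, 2 within SNHG5 (SNORD50A and SNORD50B), 1 within SNHG6 (SNORD87) and 1 within SNHG12 (SNORD99). The snoRNAs it names within SNHG7 and SNHG8 are of the SNORA (box H/ACA) type, which lacks these boxes. SNHG12 thus holds a SNORD gene although none of its 5 introns held the pair. A match of letters is a description of the sequence, and these counts do not show which snoRNAs were made.

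The RNA-seq libraries had 53230029, 41629454 and 52458857 reads on bins for the control, shRBM15#1 and shRBM15#2. A further 21.6%, 30.4% and 21.9% of the reads fell in no bin, so the shRBM15#1 library stands apart by that share. RBM15 itself had 3970 control reads, 1957 shRBM15#1 reads and 2121 shRBM15#2 reads, or 80.2, 43.7 and 40.7 CPM (counts per 1 M reads on bins, with TMM scaling). Its log2 fold change was -0.93 (SE, the standard error, 0.23, adjusted p = 0.0908 from edgeR's quasi-likelihood test), so both lines were lower than the control but the call was not made. The hairpin targets, as designed, lie in the RBM15 locus, gcggaatacaagactctgaa for shRBM15#1 at chr1:110882526-110882545 and ccaatggttatgccattctt for shRBM15#2 at chr1:110884588-110884607 (GRCh37). Of 8 markers of the megakaryocyte lineage, 5 were at or above 1 CPM in all libraries, ITGA2B, ITGB3, GATA1, TAL1 and KIT, with summed levels between 935 and 1241 CPM, while PF4 and GP9 were below 0.1 CPM. Single markers differed in direction, with ITGA2B at 919 CPM in the control against 476 and 607 in the lines, ITGB3 at 6.28 against 17.9 and 51.8, and TAL1 at 236 against 347 and 399. Markers of T cells, B cells, fibroblasts and hepatocytes summed to at most 7.04 CPM in any library. In the control, shRBM15#1 and shRBM15#2 the sums were 1.19, 7.04 and 3.03 for fibroblasts and 0.384, 2.08 and 1.03 for hepatocytes. They were 1.41, 3.04 and 1.82 for B cells, so these low sums were highest with shRBM15#1. The T cell sum, 3.48, 2.79 and 2.82, was highest in the control. Of 3 epithelial markers EPCAM and KRT18 were expressed, with summed levels of 132, 97.7 and 92.4 CPM for the list.

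Per length, as CPM per kilobase of bins, the levels in the control were highest for MALAT1, at 357, then SNHG1 (277), SNHG8 (200), SNHG5 (167) and GAS5 (139). SNHG6 (35.8), SNHG7 (27.1), SNHG12 (19.8) and NEAT1 (8.76) followed, and KCNQ1OT1 was far below, at 0.0276. In the 2 lines the ranges of MALAT1 (169 to 216) and SNHG8 (158 to 208) overlapped those of SNHG1 (180 to 194) and SNHG5 (198 to 210), so their places in the order are not fixed by these data. SNHG5 was above SNHG1 in both lines and below it in the control. The range of GAS5, 125 to 156, lay below these 4, and the gap to SNHG8 was small. A read that spans several bins is counted in each of them, which raises the level of finely divided genes such as SNHG1 (80 bins) and GAS5 (71 bins) relative to MALAT1 (7 bins).

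**Figure D1:**
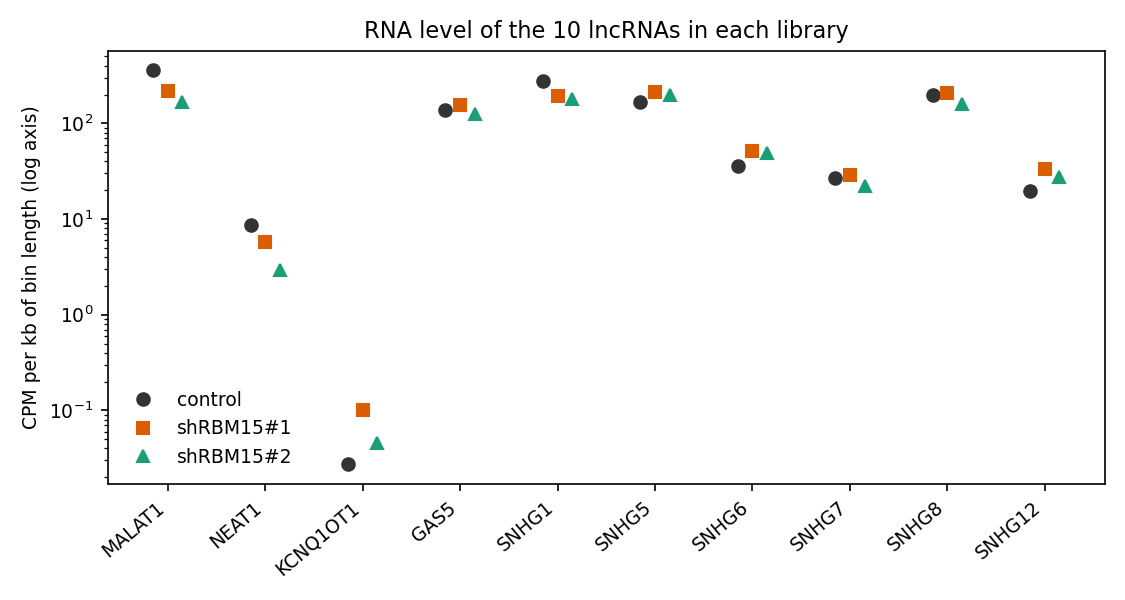
Levels of the 10 lncRNAs in CPM per kilobase of bin length (log axis) in the control, shRBM15#1 and shRBM15#2 libraries, 1 point per library. MALAT1, NEAT1 and SNHG1 are highest in the control, KCNQ1OT1 is lowest in the control at 0.0276, and 5 genes lie above 100 in every library.

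Gene levels were compared with edgeR's quasi-likelihood test on reads summed over the bins of a gene, over the 24887 genes that reached 30 reads in sum. The spread comes from the 2 knockdown lines alone, so variation between control cultures was not measured, and p-values cover only the difference between these lines. All 10 genes passed the count filter, and 0 of 10 passed an adjusted p under 0.01, compared with 0.346% of all genes tested. At an adjusted p under 0.05, 0 of 10 passed, compared with 1.74% of all genes. An unadjusted p under 0.05 was found for 5 of 10, MALAT1, NEAT1, KCNQ1OT1, SNHG1 and SNHG12, against 4673 of the 24887 genes. With DESeq2 and with RLE size factors 0 of 10 passed either limit. The median log2 fold change of the 10 genes was -0.03, with 5 higher and 5 lower, and that of all genes was 0.02.

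MALAT1 (ENSG00000251562), at positions 65265233 to 65273940 of chromosome 11 (plus strand), had 153972 control reads, 84297 shRBM15#1 reads and 76820 shRBM15#2 reads. These are 3112, 1883 and 1472 CPM, so that both knockdown lines lay below the control. The log2 fold change was -0.89 (SE 0.24, edgeR's quasi-likelihood test, adjusted p = 0.107), with -0.71 and -1.08 for each line taken singly. When genes with low counts were kept the value was -1.03, with an adjusted p of 0.0269 from the same test. The only other annotated gene in the span, on the minus strand, had 0 reads in each library. It lies wholly within MALAT1 bin 001, and reads that matched more than 1 gene were set aside as ambiguous. Its 0 reads therefore do not show whether it was transcribed.

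The decrease in MALAT1 reads was spread along the RNA. The gene has 7 bins, all in its exons, and none passed the limits on bin usage, with relative log2 fold changes (the change of a bin minus that of its gene) between -0.10 and 0.25. The 3′ bin 007, of 2840 bases, had 79475 reads in the control against 41049 and 36836 in the lines, which is 51.6% of the MALAT1 reads of the control. The largest 5′ bin, 002, of 3291 bases, had 36158, 23047 and 22190 reads, and its relative log2 fold change was 0.25, short of the limits. Every MALAT1 bin had a lower CPM in both lines than in the control.

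NEAT1 (ENSG00000245532), at positions 65190245 to 65213011 of chromosome 11 (plus strand), had 9866 control reads, 5878 shRBM15#1 reads and 3475 shRBM15#2 reads, or 199, 131 and 66.6 CPM. Both lines were lower, and they differed from each other, with log2 fold changes of -0.59 and -1.58. The fitted value was -1.01 (SE 0.35, adjusted p = 0.184, edgeR's quasi-likelihood test). When genes with low counts were kept it was -1.16, with an adjusted p of 0.00986.

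NEAT1 is made as a short RNA and as a long RNA that share the 5′ end, and the long one is needed for paraspeckles. Bins 001 to 006, the first 1988 bases up to position 65192232, belong to the short transcripts in the annotation of the counts, and bins 007 to 009, 20779 bases, to the long one. The newer annotation ends the short transcripts within bin 007, so the split follows the bins and not the exact 3′ end. The share of NEAT1 reads on bins 007 to 009 was 80.2% in control cells (95% Wilson interval 79.4% to 80.9%), 77.2% with shRBM15#1 (76.1% to 78.2%) and 71.9% with shRBM15#2 (70.4% to 73.4%). These intervals, which do not overlap, cover counting error only, and reads in 2 bins are counted in both. Leaving out bins within 500 bases of the boundary, which removes the large bin 007, gave 29.6%, 25.7% and 18.0%. No NEAT1 bin passed the limits on bin usage, with relative log2 fold changes between -0.32 and 0.33 over 7 bins tested, of which bin 004 had the smallest p.

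KCNQ1OT1 (ENSG00000269821), at positions 2629558 to 2721224 of chromosome 11 (minus strand), had few reads for its 91667 bases, 125 in the control against 418 and 218 in the shRBM15#1 and shRBM15#2 lines. These are 2.53, 9.34 and 4.18 CPM, lowest in the control and highest with shRBM15#1. The log2 fold change was 1.42 (SE 0.52, adjusted p = 0.206, edgeR's quasi-likelihood test), with 1.89 and 0.72 in the single lines. The gene is 1 bin, so bin usage could not be tested. It lies within KCNQ1 on the other strand, and without strand information reads from both cannot be told apart. KCNQ1 itself had 5, 39 and 9 reads on its own bins, in the same order of libraries. The share of reads in no bin was also highest with shRBM15#1, and its part in this difference was not tested. The low marker sums of fibroblasts, hepatocytes and B cells had the same order of libraries as KCNQ1OT1, and that of T cells did not. Whether these share a cause was not tested.

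GAS5 (ENSG00000234741), at positions 173833038 to 173838020 of chromosome 1 (minus strand), had 25029, 25341 and 23595 reads in the control, shRBM15#1 and shRBM15#2, or 506, 566 and 452 CPM. The control lay between the lines, and the log2 fold change was 0.01 (SE 0.24, adjusted p = 0.989, edgeR's quasi-likelihood test). The spliced GAS5 RNA accumulates when growth stops, and its name, growth arrest specific, comes from there. The SNORD78 gene within it had 71, 122 and 121 reads, higher in both lines than in the control, with a log2 fold change of 0.81 (SE 0.45, adjusted p = 0.363, same test). The antisense gene GAS5-AS1 had 48, 55 and 77 reads and the overlapping ZBTB37 had 577, 497 and 448, so neither was large beside GAS5.

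SNHG1 (ENSG00000255717), at positions 62619460 to 62623386 of chromosome 11 (minus strand), had 51884 control reads, 32922 shRBM15#1 reads and 35521 shRBM15#2 reads, or 1048, 735 and 681 CPM. Both lines were lower, and over all bins the log2 fold change was -0.57 (SE 0.22, adjusted p = 0.217, edgeR's quasi-likelihood test). On the exon bins alone, a count added after the bin results had been seen, the log2 fold change was -0.92 (SE 0.20, adjusted p = 0.0419). Of the 10 genes, KCNQ1OT1 was not in that fit, and among the rest SNHG1 alone passed at 0.05, compared with 2.74% of 21290 genes.

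SNHG5 (ENSG00000203875), at positions 86370710 to 86388451 of chromosome 6 (minus strand), had 18235, 20767 and 22749 reads, or 369, 464 and 436 CPM, higher in both lines, with a log2 fold change of 0.29 (SE 0.22, adjusted p = 0.523, edgeR's quasi-likelihood test). SNHG6 (ENSG00000245910), at positions 67833919 to 67838633 of chromosome 8 (minus strand), had 2071, 2662 and 2993 reads, or 41.9, 59.5 and 57.4 CPM, and a log2 fold change of 0.48 (SE 0.24, adjusted p = 0.314). SNHG12 (ENSG00000197989), at positions 28905050 to 28909495 of chromosome 1 (minus strand), had 3315, 5083 and 4807 reads, or 67.0, 114 and 92.1 CPM, and a log2 fold change of 0.62 (SE 0.25, adjusted p = 0.231). In each of these 3 hosts the control was below both lines. The SNORD99 gene within SNHG12 had 19, 36 and 42 reads, with a log2 fold change of 1.06 (SE 0.65, adjusted p = 0.416, same test).

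SNHG7 (ENSG00000233016), at positions 139615818 to 139622636 of chromosome 9 (minus strand), had 5819, 5654 and 5048 reads in the control, shRBM15#1 and shRBM15#2, or 118, 126 and 96.8 CPM, and a log2 fold change of -0.08 (SE 0.25, adjusted p = 0.900, edgeR's quasi-likelihood test). SNHG8 (ENSG00000269893), at positions 119199864 to 119200978 of chromosome 4 (plus strand), had 9142, 8592 and 7610 reads, or 185, 192 and 146 CPM, and a log2 fold change of -0.13 (SE 0.25, adjusted p = 0.821). As in GAS5, the lines lay on either side of the control, so that 7 of the 10 genes moved the same way in both lines. The control library is the same for both lines, and the share of all genes that did so was not counted. SNHG12 overlaps TRNAU1AP (1630, 1390 and 1720 reads) only at positions 28905050 to 28905051, where SNHG12 bins 001 and 002 held 0 reads. SNHG7 overlaps DIPK1B (130, 209 and 152) and SNHG6 overlaps MCMDC2 (34, 65 and 52). Reads that matched more than 1 gene were set aside as ambiguous, and the others cannot be assigned by strand.

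**Figure D2:**
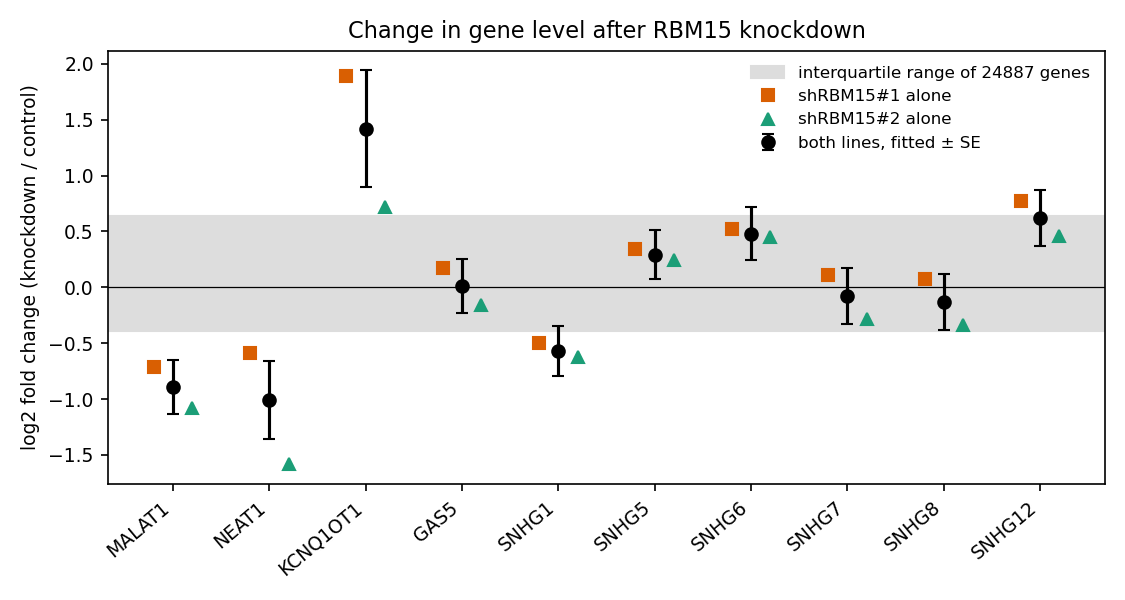
Log2 fold change of the gene level, knockdown over control, for both lines together (circles, fitted value with standard error) and for each line alone (squares and triangles). The grey band is the interquartile range of 24887 genes, from -0.39 to 0.64. MALAT1, NEAT1 and SNHG1 lie below it and KCNQ1OT1 above it, while GAS5, SNHG7 and SNHG8 have lines on both sides of 0.

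The use of bins within a gene was tested with diffSpliceDGE in edgeR, which compares the change of a bin with that of its gene. Of the 279 bins of the 10 genes, 249 bins in 9 genes were tested. Past the limits used by the study (p under 0.05 before adjustment, with more than a 1.2-fold change) were 46 of them, which is 18.5%, compared with 1.45% of 234192 bins in all. Of the 46 bins, 42 were used more after knockdown, for which the share over all bins is 0.662%, and 4 were used less. SNHG1 held 38 of the 46, SNHG5 held 7 and SNHG7 held 1. Counted by gene, 1965 of the 12893 genes tested had at least 1 bin past these limits. At an adjusted p under 0.05, 5 bins passed, all in SNHG1, compared with 0.0205% of all bins. This count depended on the bins tested, with 0 when every bin with at least 1 count was kept, 10 at a summed count of at least 300, and 29 in a DESeq2 model. Neighbouring bins share reads, so they are not independent observations.

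In SNHG1 the bins that passed were all in introns. A bin is called exonic or intronic here by the canonical transcript, which has 11 exons, and intron bins exist in the counts because other annotated transcripts retain them. Of 48 intron bins 38 were used more, with relative log2 fold changes between 0.56 and 1.38, and of 30 exon bins tested 0 passed, with a median of -0.38. The 5 bins at an adjusted p under 0.05 were 057 and 058 in intron 3, 051 in intron 4, and 044 and 047 in intron 5, the bins in capitals in the sequences above. Bin 057 had 158 control reads, 266 shRBM15#1 reads and 278 shRBM15#2 reads, while the reads of the gene were fewer in both lines, and its share of the SNHG1 reads went from 0.305% to 0.808% and 0.783%. Its relative log2 fold change was 1.38 (adjusted p = 0.0247, diffSpliceDGE). Bin 058 had 147, 237 and 255 reads (1.34, adjusted p = 0.0380), and bin 051 had 174, 287 and 284 reads (1.32, adjusted p = 0.0380). Bin 044 had 224, 357 and 374 reads (1.31, adjusted p = 0.0338), and bin 047 had 160, 258 and 280 reads (1.35, adjusted p = 0.0341). In all 5 bins both lines had more reads than the control.

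**Figure D3:**
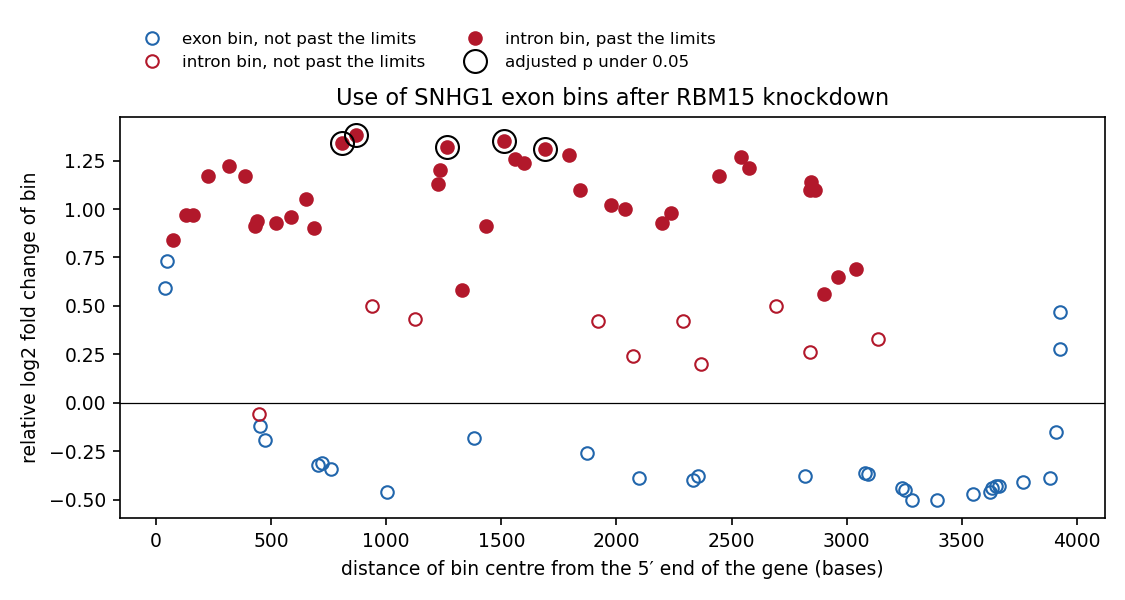
Relative log2 fold change of 78 SNHG1 bins after RBM15 knockdown against the distance of the bin centre from the 5′ end of the gene. Filled points passed the limits of the study, p under 0.05 before adjustment with more than a 1.2-fold change, and rings mark an adjusted p under 0.05. The 38 filled points are intron bins between 0.56 and 1.38, and most exon bins lie below 0 with a lowest value of -0.50.

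Summed over the gene, exon bins of SNHG1 held 39887 control reads, 19259 shRBM15#1 reads and 20953 shRBM15#2 reads, or 806, 430 and 402 CPM. Intron bins held 11997, 13663 and 14568 reads, or 242, 305 and 279 CPM. The exon reads were thus lower and the intron reads higher in both lines. Of the 11 exons, exons 2 to 11 were lower in both lines, with log2 ratios to the control between -0.67 and -1.12. Exon 1 had only 82, 80 and 99 reads, with log2 ratios of 0.11 and 0.20. The last exon, which holds the most reads, had 22321, 10499 and 11132.

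Introns 1 to 9 of SNHG1 had a higher CPM in both lines than in the control. Intron 5, from 62621537 to 62621990, stood highest, with 24.6 CPM in the control against 40.1 and 36.6 in the lines, log2 ratios of 0.70 and 0.57, and all 7 of its bins passed the limits. Intron 3 had 12.9, 18.0 and 16.4 CPM. Intron 6, which holds the TGATGA and CTGA pair, had 20.8, 22.0 and 22.1 CPM, log2 ratios of 0.08 in each line. Intron 10, next to the last exon, had 4.61, 4.09 and 3.78 CPM on the 62 bases that a bin covers, and was lower in both lines.

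**Figure D4:**
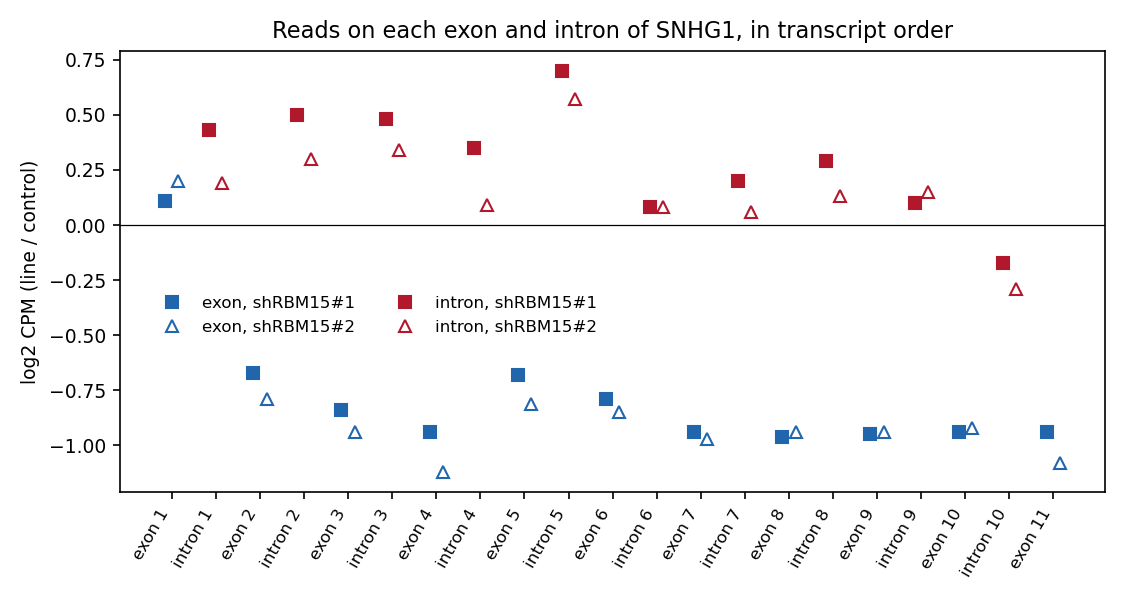
Log2 ratio of CPM, line over control, for each exon and intron of the canonical SNHG1 transcript in transcript order. Squares are shRBM15#1 and triangles shRBM15#2, each 1 library. Exons 2 to 11 lie between -0.67 and -1.12, and introns 1 to 9 lie above 0, with intron 5 highest at 0.70 and 0.57.

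The ratio of intron to exon reads was then tested for all genes in 1 model, with edgeR's quasi-likelihood test on the summed intron bins and summed exon bins of 10370 genes. This test was added after the bin results had been seen and uses the same reads, so it is not independent of them. It gave an adjusted p under 0.05 for 0.916% of the genes, 32 with a higher ratio after knockdown (0.309% of the genes tested) and 63 with a lower ratio. The median log2 change of all genes was 0.02, with an interquartile range from -0.20 to 0.30. MALAT1, NEAT1 and KCNQ1OT1 have no intron bins and were not in the fit. Of the 7 host genes 7 had a higher ratio in both lines, with a median of 0.32, and 2 passed, SNHG1 and GAS5. Both lines were set against the same control library, so their agreement is not replication. The spread in this test also comes from the 2 knockdown lines alone, and the estimate for a gene borrows from other genes. Its p-values therefore do not cover variation between control cultures. The share of all genes with a higher ratio in both lines was not counted.

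For SNHG1 the control had 0.301 intron reads per exon read, shRBM15#1 had 0.709 and shRBM15#2 had 0.695, so the lines were close to each other and above the control. The log2 change was 1.22 (SE 0.08, adjusted p = 1.1e-09, edgeR's quasi-likelihood test), with 1.24 and 1.21 in the single lines, and no gene in the fit had a smaller p. The share of reads in no bin was 30.4% with shRBM15#1 and 21.9% with shRBM15#2, and its part in the SNHG1 ratio was not tested. With bins of at least 30 bases only, the SNHG1 log2 change was 1.26, with an adjusted p of 2.1e-36 from the same test. The size of the p thus depended strongly on the bins used, while the log2 change did not.

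GAS5 had 0.706, 0.869 and 1.04 intron reads per exon read in the control, shRBM15#1 and shRBM15#2, higher in both lines, and the share of its reads on intron bins was 41.4% (95% Wilson interval 40.8% to 42.0%), 46.5% (45.9% to 47.1%) and 50.9% (50.3% to 51.6%). The log2 change was 0.43 (SE 0.10, adjusted p = 0.0439, edgeR's quasi-likelihood test), with 0.30 and 0.56 in the single lines. No single bin of GAS5 passed, and bin 058, in an intron, had the smallest p, with 318, 454 and 458 reads (relative log2 fold change 0.54). A read that spans several bins is counted in each of them, so the Wilson intervals are too narrow even for counting error. The share on intron bins also depends on how finely exons and introns are cut into bins.

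The other hosts had smaller values or larger errors, and their adjusted p-values from the same test did not pass. SNHG7, with most of its reads on intron bins, went from 74.2% in the control to 77.6% and 81.4% (log2 change 0.44, SE 0.16, adjusted p = 0.261). SNHG8 went from 25.5% to 28.1% and 31.9% (0.32, SE 0.14, adjusted p = 0.372), and SNHG5 from 20.8% to 22.6% and 23.7% (0.20, SE 0.10, adjusted p = 0.490). In each of these hosts a single short bin held most of the control intron reads. In SNHG7 this was bin 007 (130 bases, 2818 of 4319 reads, relative log2 fold change -0.01). In SNHG8 it was bin 009 (131 bases, 1652 of 2335, 0.16), and in SNHG5 bin 018 (81 bases, 1905 of 3655, -0.01). Their shares are thus not an even intron signal along the gene. SNHG12 had 54.6%, 56.4% and 58.5% (0.17, SE 0.16) and SNHG6 had 40.3%, 43.1% and 43.2% (0.17, SE 0.19). Whether the change in SNHG1 differed from that of the other hosts was not tested.

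**Figure D5:**
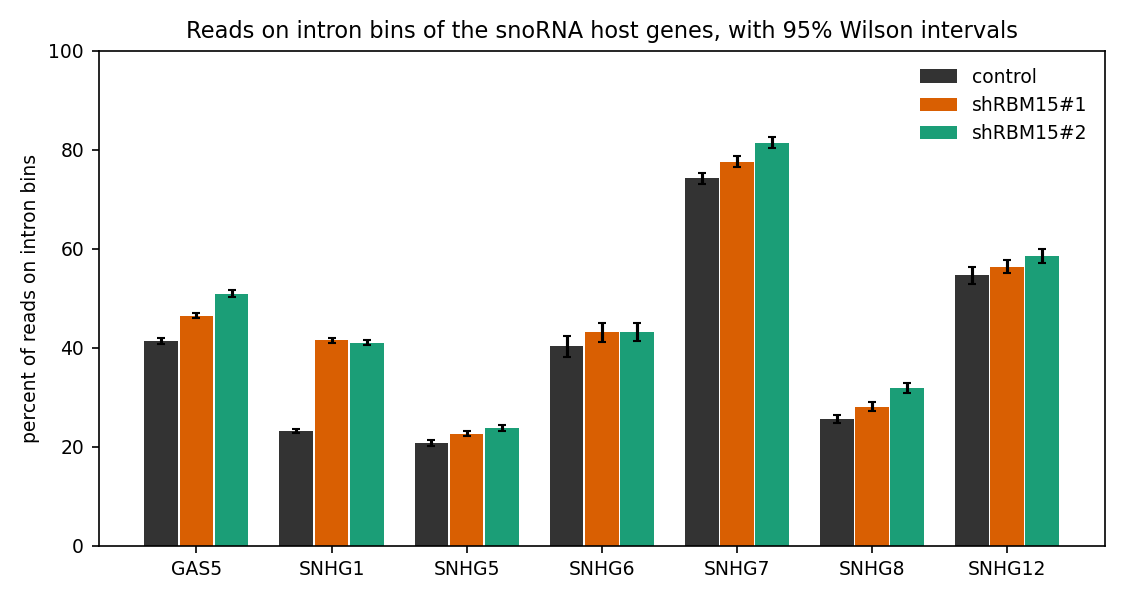
Percent of reads on intron bins, among reads on intron and exon bins of the canonical transcript, for the 7 snoRNA host genes in the control and both knockdown lines. Error bars are 95% Wilson intervals, which cover counting error only. They are too narrow even for that, since a read in several bins is counted in each. SNHG1 goes from 23.1% to 41.5% and 41.0%, and the other hosts move by less.

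In SNHG5, host of SNORD50A and SNORD50B, 7 of 32 tested bins passed the limits of the study, and none passed an adjusted p under 0.05. Bin 003, from 86375570 to 86375721, had 40 control reads, 5 shRBM15#1 reads and 19 shRBM15#2 reads (relative log2 fold change -2.02, adjusted p = 0.157, diffSpliceDGE), and the adjoining bin 004 had 39, 11 and 23 reads (-1.48). Both lie in the long intron between exons 4 and 5, and bin 003 held 0.219% of the SNHG5 reads of the control. Bins 025 and 026, adjoining parts of exon 1 from 86387918 to 86388120, had 290, 164 and 206 reads (-0.92, adjusted p = 0.693) and 414, 286 and 345 reads (-0.66), lower in both lines although the gene was higher. Bins 005, 006 and 009 near exon 4 were used more, with relative log2 fold changes of 0.82, 0.60 and 0.84. Bin 025 is shown in capitals with 20 bases on either side (chr6:86387898-86387997, minus strand).
SNHG5 bin 025: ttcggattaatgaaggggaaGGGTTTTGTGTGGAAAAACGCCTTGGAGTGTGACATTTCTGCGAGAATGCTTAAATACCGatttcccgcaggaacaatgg

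In SNHG7, bin 013, from 139621332 to 139621497 in an intron, had 39 reads in the control against 116 and 97 in the lines, more in both lines (relative log2 fold change 1.56, unadjusted p = 0.041, adjusted p = 1.00, diffSpliceDGE). It is printed in capitals (chr9:139621312-139621517, minus strand), and it begins with GTAAG at the 5′ splice site.
SNHG7 bin 013: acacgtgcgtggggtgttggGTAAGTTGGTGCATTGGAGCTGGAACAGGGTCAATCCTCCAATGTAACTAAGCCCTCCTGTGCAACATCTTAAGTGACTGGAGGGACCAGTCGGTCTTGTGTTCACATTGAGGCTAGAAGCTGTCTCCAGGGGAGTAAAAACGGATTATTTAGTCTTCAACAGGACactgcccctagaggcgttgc

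In SNHG6, SNHG8 and SNHG12 no bin passed. The bins with the smallest p were bin 014 of SNHG6 (9, 18 and 23 reads, relative log2 fold change 0.71), bin 008 of SNHG8 (477, 668 and 511 reads, 0.49) and bin 022 of SNHG12 (17, 59 and 47 reads, 1.05). The last 2 lie in introns, and both lines had more reads than the control in each of these bins.

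Among 14 other snoRNA host lncRNAs, 13 were tested for gene level, and 0 passed an adjusted p under 0.05, with 9 lower, 4 higher and a median log2 fold change of -0.43, compared with 0.02 over all genes. SNHG14, which carries the SNORD115 and SNORD116 clusters, had 127 CPM in the control against 65.4 and 51.2 in the lines (log2 fold change -1.13, adjusted p = 0.0584, edgeR's quasi-likelihood test). Its adjusted p was 0.0395 with RLE size factors in the same test, 0.0166 with DESeq2 and 0.00369 when genes with low counts were kept, whereas on canonical exon bins the log2 fold change was -0.31 (SE 0.59, adjusted p = 0.822, edgeR). EPB41L4A-AS1 (-0.76) and SNHG15 (-0.65) were the next largest. The intron-to-exon ratio passed in 0 of 11 of these genes, with a median log2 change of 0.13. Among 11 protein-coding snoRNA host genes, HSPA8, a cytosolic chaperone, rose from 2159 to 6284 and 6349 CPM (1.55, adjusted p = 0.0175, same test), while the median was -0.07 and the intron-to-exon ratio passed in 0 of 10. EIF4A2 and NOP56 had values of 0.57 and 0.53.

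Among 14 other lncRNAs, 13 were tested, and MEG3, an imprinted lncRNA, fell from 16.2 CPM in the control to 4.40 and 2.45 (log2 fold change -2.25, adjusted p = 0.0283, edgeR's quasi-likelihood test). H19, also imprinted, had 3, 40 and 13 reads (3.17, adjusted p = 0.210), and MIR22HG had a value of 1.18. The median of this list was -0.49, with 6 higher and 7 lower. In the imprinted domain around KCNQ1OT1, 0 of 8 genes passed, and the median was 0.11. SLC22A18 had 342, 39 and 126 reads (-2.06, adjusted p = 0.103), KCNQ1 had a value of 2.32 on few reads, and PHLDA2 had 28, 39 and 49 reads (0.68). CDKN1C, a cell cycle inhibitor of this domain, had 73, 90 and 88 reads (0.32).

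The protein partners of these RNAs passed in no case at the gene level. Of 10 paraspeckle protein genes 0 passed (median -0.12), with DAZAP1 at -0.54 and PSPC1 at 0.37. Of 8 nuclear speckle protein genes 0 passed (median 0.01), and SRRM2 had 155, 108 and 78.1 CPM (-0.74). THRAP3 was at 0.40 and SON at -0.18. In the intron-to-exon test 2 of 8 paraspeckle protein genes passed, RBM14 (-1.09) and HNRNPK (-0.45). Of 8 nuclear speckle protein genes 1 passed, BCLAF1 (-0.52). All 3 had a lower ratio, as did 63 of the 10370 genes tested in all.

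Of 10 factors of nonsense-mediated decay, the pathway that degrades several host RNAs in the cytoplasm, 0 passed, with a median of -0.29 and values of 0.82 for SMG8, -0.70 for SMG9 and -0.58 for SMG6. Of 11 proteins of snoRNA particles 0 passed, with a median of 0.05. FBL, the methyltransferase of box C/D particles, had 361 CPM in the control against 171 and 217 in the lines (-0.89, adjusted p = 0.107, edgeR's quasi-likelihood test), while NUFIP1 and SHQ1 had values of 0.67 and 0.58.

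In the RIP-seq, 1 normal IgG library and 1 anti-RBM15 library could be assigned to a condition. For 1 further library labelled with each antibody, the antibody on the label is not the one by which the authors grouped the library, and these were used in no comparison. The deposited list holds only the 1515 sites that passed the limits of the study, so that a gene outside the list may still have been bound below them. Over the 1515 sites the anti-RBM15 library had 807871 reads and the normal IgG library 28387. The study kept sites with more reads in its RBM15 libraries, so an excess was set by that choice. The counts are raw and not scaled to library size, here and for the single sites below, so they do not measure strength of binding.

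No site overlapped the span of any of the 10 genes (0 of 10), on either strand, and none lay within 10 kb, compared with 4.81% of all genes tested for gene level whose span holds a site. Of 3845 tested genes annotated as lncRNAs, 75 held a site, which is 1.95%. The nearest site to MALAT1 was 71.9 kb away, in an intron of EHBP1L1 (chromosome 11 from 65345828 to 65346215), where anti-RBM15 gave 141 reads and normal IgG 7. The nearest to NEAT1 was 118 kb away, in no gene, with 85 and 1 reads. For the other 8 genes the nearest site was between 298 and 5257 kb away.

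Sites were present in genes of the protein lists. Among the snoRNA host genes, 4 of 11 protein-coding hosts held a site, NCL, EIF4A2, DKC1 and TAF1D, and 0 of the 13 other host lncRNAs. NCL had the most reads, 3533 in the anti-RBM15 library and 117 with normal IgG, in its 3′UTR. Of the paraspeckle protein genes 5 of 10 held a site, among them SFPQ with 2 sites and HNRNPK, whose 3′UTR site had 1963 and 38 reads. SON and ACIN1 had 2 sites each, and SMG6, SMG9, FBL and RUVBL1 also held sites, that of FBL in an intron with 206 and 7 reads.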

How the data were processed

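RNA-seq of 3 MEG-01 cultures and RIP-seq of 4 MEG-01 libraries were used. The RNA-seq reads, paired-end and without strand, were mapped by the authors with STAR (GRCh37), and the deposited values are raw counts on the exon bins of Ensembl GRCh37.70, without normalization. Per the labels' processing notes HTSeq 0.6.0 was among the tools. For the RIP-seq, the authors called peaks on the coverage of all libraries (hg19) and deposited raw counts for 1515 peaks with their own fold changes, p-values and FDR, which were not used here. Lines that name no gene held 23.2%, 32.0% and 23.5% of the reads of the control, shRBM15#1 and shRBM15#2 and were left out.

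Bin counts were summed per gene, with 54481 of 62238 identifiers matched to a symbol in GENCODE v44lift37. CPM and tests used TMM factors (0.931, 1.08 and 0.996). Gene levels, bin usage (diffSpliceDGE) and intron-to-exon ratios were tested with edgeR 4.0.16 in R 4.3.3, with Benjamini-Hochberg adjustment over all features that reached a sum of 30 reads. DESeq2 1.42.0, RLE size factors, other count minimums and single lines were the alternatives, and the scripts were tested on simulated data. Summaries used Python 3.11.15. Intervals are Wilson intervals at 95% and cover counting error only, since duplicates were not removed by molecular identifiers. Reads that span several bins are counted in each, which makes the intervals too narrow. Site positions were overlapped with gene spans by coordinates. Intron sequences came from GRCh37 and snoRNA names from RefSeq (GRCh38.p14).

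The genes and lists were chosen with earlier results of these data known. Named are all 10 genes, bins past a limit (for SNHG1 as counts and ranges, beyond the 5 bins at an adjusted p under 0.05) or with the smallest p, nested snoRNA genes that reached 30 reads, and per list the called genes and the 3 largest changes. CDKN1C, the next host and site genes and the intron-to-exon calls of other lists were named after their values were seen. The other genes of the lists enter only in counts and medians, and some are not reported here by name.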

Additional observations from a re-analysis of the deposited data

How the results depend on the processing

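Of the fold changes of the 10 genes, 5 of 59 alternative values had the other sign, all in GAS5 (-0.13 without the filter on low counts, -0.14 on canonical exon bins and -0.16 in shRBM15#2 alone), SNHG7 (0.11 in shRBM15#1 alone) and SNHG8 (0.07 in shRBM15#1 alone). When genes with low counts were kept, the median change over all genes (log2) moved from 0.02 to 0.44 and the number at an adjusted p under 0.01 from 86 to 801, and 1 of the 10 genes (NEAT1) passed 0.01 and 2 (NEAT1 and MALAT1) passed 0.05. On canonical exon bins, an alternative added after seeing the data, 1 gene (SNHG1) passed 0.05. Member bins past the limits of the study numbered 46, and 71 in the DESeq2 model. Bins at an adjusted p under 0.05 numbered 5, and 0 when every bin with a read was tested (at least 1 count), 10 with a summed count of at least 300, and 29 in the DESeq2 model, which was fitted with a sample of other genes. The cause of these movements was not tested.

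Between the single lines, NEAT1 ranged from -1.58 to -0.59, KCNQ1OT1 from 0.72 to 1.89, the intron-to-exon change of SNHG1 from 1.21 to 1.24 and that of GAS5 from 0.30 to 0.56. A comparison with a single line leaves 1 library on each side and gives no test. Of the list genes, SNHG14 passed 0.05 without the filter (-1.26), with RLE size factors (-1.12) and with DESeq2 (-1.12), SLC22A18 passed 0.05 without the filter (-2.18) and with DESeq2 (-2.06), FBL without the filter (-1.02) and MIR22HG with DESeq2 (1.18). Sites overlapping the 10 genes stayed at 0 on the strand of the gene and with spans widened by 10 kb. A stricter FDR for the sites was not run, since the authors' FDR column was not used. No paired analysis was possible because there was 1 control library. With 1 control the design cannot separate knockdown from culture.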
